A study of Lachancea kluyveri with 16 samples.

Results

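The yeast *Lachancea kluyveri* strain SEF1-VP16 was compared with itself on glycerol and on glucose. The comparison rests on the 8 arrays, of 16 in the series, whose titles name this strain: 4 of cultures labelled YPGly and 4 of cultures labelled YPD, with 1 culture on each array. YPGly is yeast extract and peptone with glycerol, and YPD is the same base with glucose. Each culture started overnight in YPD at 28 °C, went at an optical density of 0.2 per ml into its own medium and was harvested 5.5 h later from 30 °C. All 8 cultures were of 1 isolate, SkSef1VP16NB10-1 (MATa ura3 SEF1-VP16::FRT), made from JYL1897, the strain called WT. In it the gene of the transcription factor Sef1 was altered at its own locus so that the protein ends in the VP16 activation domain, taken from a virus, so both groups carried the fusion. The other 8 arrays were of WT in the same media and are used only where the medium effect in SEF1-VP16 is set against that in WT. The question was which transcripts differ between the media in cells whose Sef1 carries this domain, and by how much.

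In *Saccharomyces cerevisiae*, whose gene names are borrowed below, glucose is fermented through glycolysis to ethanol and represses genes for the use of other carbon sources, in part through the repressor Mig1. Glycerol is taken up by Stl1, phosphorylated by Gut1 and oxidised by the mitochondrial enzyme Gut2, and its use needs respiration. Growth without a sugar needs gluconeogenesis, and growth on acetate or ethanol further needs the glyoxylate cycle. Fatty acids are broken down by beta-oxidation in the peroxisome. Sef1 is a zinc cluster transcription factor. Gene names follow the *S. cerevisiae* ortholog or most similar gene that the study's tables give, so 2501 of the genes tested had a name, and several *L. kluyveri* genes can share one. Each gene is therefore given with its locus tag, whose letter is the chromosome.

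A level is the log2 processed signal of a gene's brighter probe relative to the 75th percentile of its array, so that 0 is that percentile. On the 8 arrays this percentile lay between 12291 and 21070 signal units, from 96.7% to 98.4% of gene probes were well above background, and none was saturated. Arrays of 1 labelled medium correlated at 0.983 to 0.996 over genes, and arrays of different media at 0.83 to 0.87. Every array labelled YPGly lay on 1 slide and every array labelled YPD on another, and the effects of medium and slide cannot be told apart. The labels were also set against a few genes of known carbon response, picked by hand. JEN1 (SAKL0F02178g), ADY2, ACS1, ICL1, PCK1 and FBP1, which *S. cerevisiae* holds down in glucose, all lay lower on the arrays labelled YPGly. Not every such gene did so: JEN1 (SAKL0D04510g) lay higher, by 3.86, and MLS1 (SAKL0E10846g) was not called, at 0.10. CYB2 (SAKL0G16852g) and ADH2 (SAKL0F06270g), held down likewise, lay higher, by 1.77 and 1.03. Same-named genes differed from these: JEN1 (SAKL0G14938g) lay lower, at −1.36, and CYB2 (SAKL0F16610g) was not called, at −0.49. The ADH2 probe is listed as cross-hybridising, and JEN1 (SAKL0D04510g) was near background on most arrays labelled YPD. HXT1 (SAKL0D14960g) and HXT3 (SAKL0G07656g), which glucose induces in *S. cerevisiae*, lay lower, at −4.03 and −2.26. GUT1 (SAKL0H25938g) and GUT2 (SAKL0E15114g) lay lower like the first 6, at −1.91 and −1.20. The labels go against the first 6 genes and against GUT1 and GUT2, but not against all genes of known carbon response. Every direction below is that of the arrays as labelled.

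A gene was called where the adjusted p from limma was 0.05 or less and the difference was at least 1.5-fold. Of 5266 genes tested, 2443 (46.4%) were called. Of these, 1394 (26.5% of genes tested) were higher and 1049 (19.9%) lower where labelled YPGly. The median log2 difference of all genes was 0.13, with quartiles of −0.42 and 0.62. The falls reached further than the rises: 205 genes fell and 97 rose by at least 4-fold, 60 fell and 12 rose by at least 16-fold, and 20 fell and 3 rose by at least 64-fold. The 205 genes that fell by at least 4-fold had a median level of −3.19 where labelled YPGly and of 0.31 where labelled YPD. For the 97 that rose by as much, the medians were −0.69 where labelled YPGly and −3.43 where labelled YPD. The 4 arrays of one medium lay wholly above the 4 of the other for 3537 genes (67.2%), 2106 of them higher and 1431 lower where labelled YPGly. The labels call the cultures biological repeats and give no further origin, so the p-values measure the spread between these cultures.

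**Figure D1:**
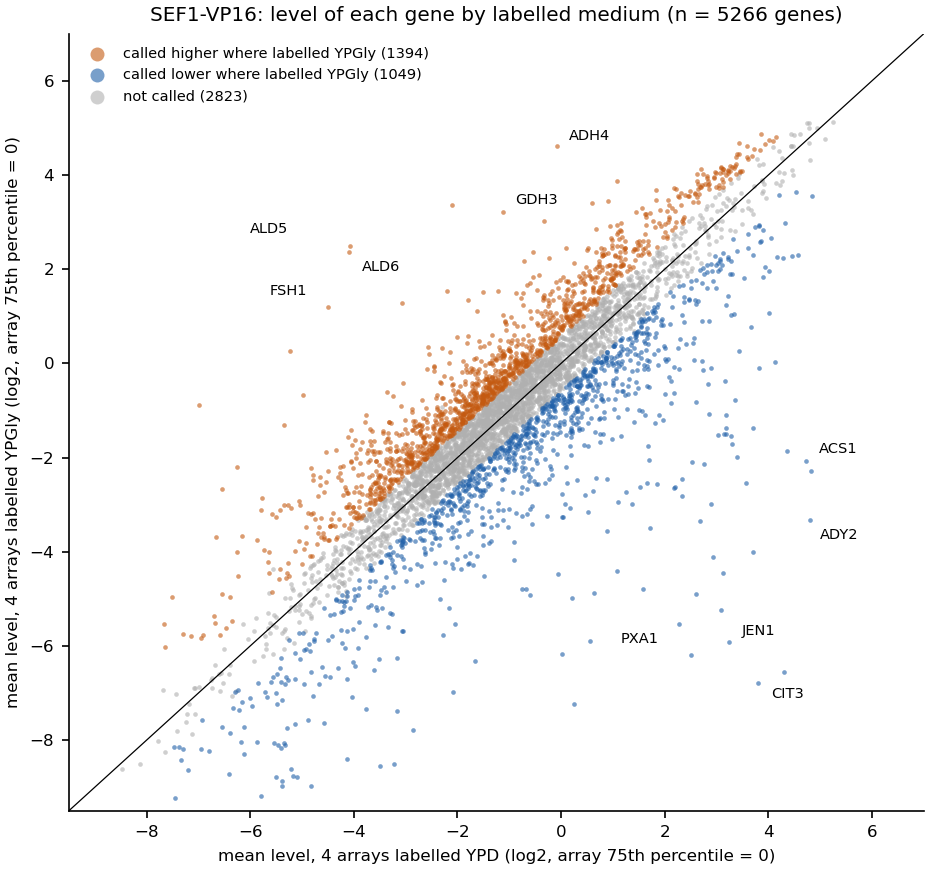
Mean level of each of 5266 genes in SEF1-VP16 on the 4 arrays labelled YPGly (vertical axis) against the 4 labelled YPD (horizontal axis), both log2 with the array's 75th percentile at 0; the line marks equal levels. Orange points (1394 genes) were called higher and blue points (1049) lower where labelled YPGly, and the blue points reach further from the line.

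ALD5 and ALD6, acetaldehyde dehydrogenases, had the largest rises. ALD5 (SAKL0F09108g), a mitochondrial acetaldehyde dehydrogenase in *S. cerevisiae*, stood at 2.39, 2.58, 2.38 and 2.64 on the arrays labelled YPGly, against −4.45, −3.88, −4.03 and −3.91 on those labelled YPD. ALD6 (SAKL0H10252g), the cytosolic enzyme there, stood at 2.32, 2.37, 2.31 and 2.43 where labelled YPGly, against −3.89, −4.01, −4.25 and −4.22 where labelled YPD. Both genes were high on all 4 YPGly arrays and low on all 4 YPD arrays. The log2 difference was 6.56 ± 0.15 (SE) for ALD5 and 6.45 ± 0.14 for ALD6, or 94.6-fold and 87.3-fold (limma adjusted p of 2.0e-15 and 1.3e-15). Their second probes gave 6.60 and 7.31. ALD4 (SAKL0D14806g), named for another mitochondrial enzyme that makes acetate, fell by 2.28.

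GDH3, MEP2, GAP1 and UGA4 (SAKL0E14806g) were also among the leading rises. GDH3 (SAKL0D14982g), an NADP-dependent glutamate dehydrogenase, had levels of 3.23, 3.22, 3.17 and 3.25 where labelled YPGly, against −1.22, −1.12, −1.01 and −1.15 where labelled YPD, a rise of 4.34 ± 0.08. MEP2 (SAKL0E12254g), an ammonium permease, rose by 4.35 ± 0.12, GAP1 (SAKL0D04664g), the general amino acid permease, by 3.73 ± 0.09, and UGA4 (SAKL0E14806g), a permease for the amino acid GABA, by 4.32 ± 0.11. Groups that do not overlap were a condition for choosing the leading genes, these 4 included. Another gene named UGA4 (SAKL0G14762g) fell by 1.31. The other leading rises were FSH1 (SAKL0G10780g), a serine hydrolase, by 5.69, the unnamed SAKL0H11770g by 5.50, ITR1 (SAKL0C11066g), an inositol transporter, by 4.03 and SAM2 (SAKL0C01870g), which makes S-adenosylmethionine, by 3.34.

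Among the 12 leading rises, the YPD cultures were unlike each other for ADH4 and YRO2. ADH4 (SAKL0C13926g), an alcohol dehydrogenase, stood at 4.50, 4.59, 4.44 and 4.93 where labelled YPGly, against −2.01, 1.33, −1.84 and 2.18 where labelled YPD. YRO2 (SAKL0D03652g), a membrane protein, stood at 3.41, 3.40, 3.16 and 3.48 where labelled YPGly, against −3.13, −1.48, −2.88 and −0.92 where labelled YPD. In both genes YPD replicates 2 and 4 lay above replicates 1 and 3, yet below every YPGly array, as the choice of leading genes required. The log2 difference was 4.70 ± 0.81 for ADH4 (adjusted p of 9.0e-05) and 5.46 ± 0.35 for YRO2 (adjusted p of 7.5e-10).

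**Figure D2:**
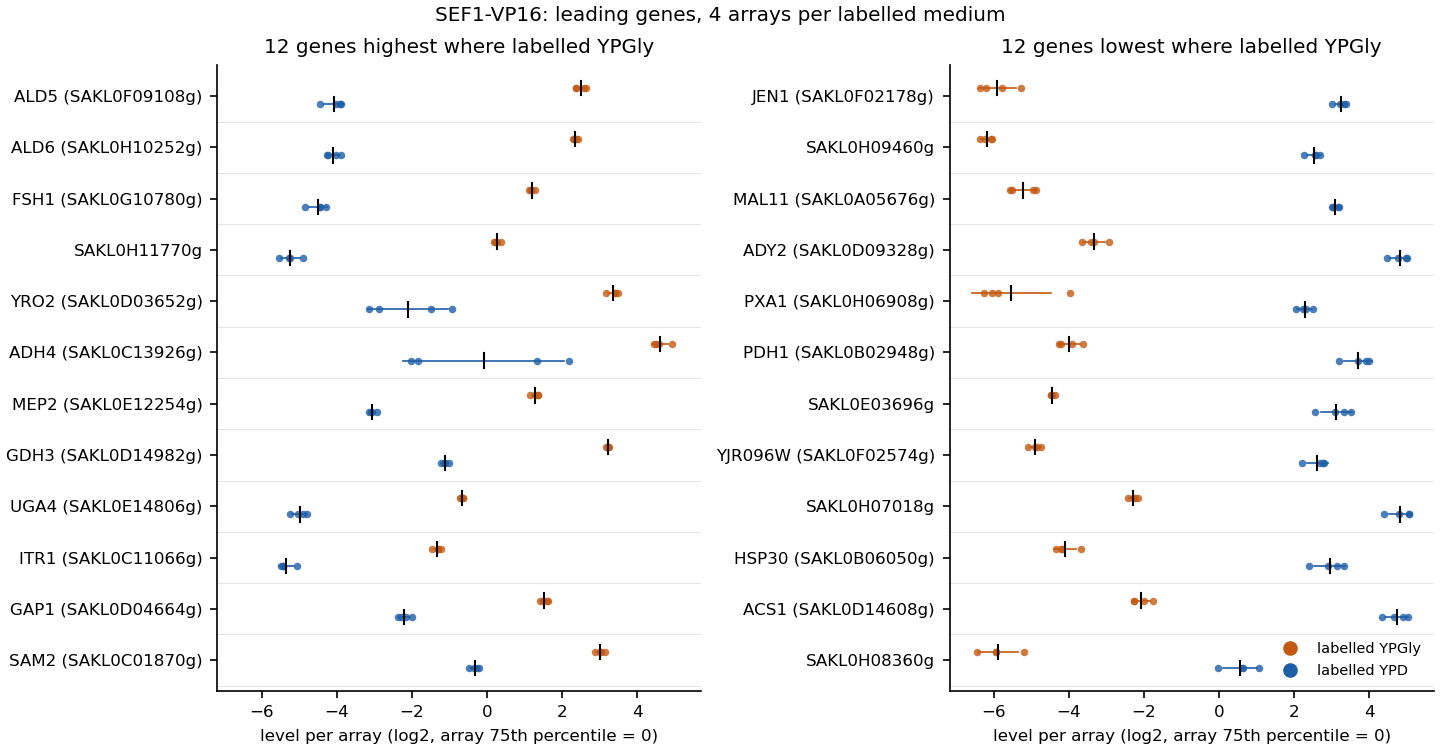
Level per array (log2, array 75th percentile at 0) of the 12 leading rises and the 12 leading falls among called genes well above background on all 8 arrays; orange points are the 4 arrays labelled YPGly, blue points the 4 labelled YPD, black ticks the means and lines the mean ± SD. Separate groups were a condition for choosing these 24 genes. The 4 YPD points spread widest for ADH4 (−2.01 to 2.18).

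JEN1, ADY2 and MAL11 were among the largest falls. JEN1 (SAKL0F02178g), a lactate and pyruvate transporter, stood at −5.26, −6.20, −5.78 and −6.38 where labelled YPGly, against 3.34, 3.39, 3.21 and 3.02 where labelled YPD. ADY2 (SAKL0D09328g), an acetate transporter, stood at −3.42, −2.93, −3.65 and −3.32 where labelled YPGly, against 5.01, 4.98, 4.76 and 4.47 where labelled YPD. MAL11 (SAKL0A05676g), a maltose transporter, stood at −4.87, −4.96, −5.51 and −5.58 where labelled YPGly, against 3.16, 3.18, 3.02 and 2.99 where labelled YPD. All 3 were low on every YPGly array and high on every YPD array, with log2 differences of −9.14 ± 0.20, −8.13 ± 0.18 and −8.32 ± 0.20 (565-fold, 281-fold and 319-fold, with adjusted p of 1.0e-15, 1.5e-15 and 3.7e-15).

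The other leading falls were PXA1 (SAKL0H06908g), a peroxisomal fatty acid transporter, at −7.81 ± 0.35, PDH1 (SAKL0B02948g), a methylcitrate dehydratase, at −7.70 ± 0.19, and YJR096W (SAKL0F02574g), an aldo-keto reductase, at −7.51 ± 0.13. They were joined by HSP30 (SAKL0B06050g), a small membrane protein of the stress response, at −7.04 ± 0.18, and ACS1 (SAKL0D14608g), an acetyl-CoA synthetase, at −6.80 ± 0.20. The unnamed genes SAKL0H09460g, SAKL0E03696g, SAKL0H07018g and SAKL0H08360g fell too, with log2 differences of −8.70, −7.57, −7.11 and −6.45. PXA1 stood at −6.26, −3.97, −5.88 and −6.04 where labelled YPGly, against 2.51, 2.24, 2.30 and 2.04 where labelled YPD, so YPGly replicate 2 lay above the other 3. Further large falls belonged to genes that were not well above background on every YPGly array. These were SAKL0A03696g, above background on 3 of 4 and at −10.87, CIT3 (SAKL0B02926g) on 2 of 4 and at −10.60, and RGT2 (SAKL0B00264g) on 2 of 4 and at −7.49.

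For 16 genes no YPGly array was well above background although a YPD array was, and for 20 genes the reverse held, so these have only a bound. It sets the mean of the brighter group against that of the dim group, taking on each dim array the gene's own signal or the lowest one well above background, whichever is higher. YPL272C (SAKL0E00792g) was at least 43.0-fold higher where labelled YPGly. The next largest bounds were SAKL0C11748g at least 2.54-fold, SAKL0F09130g at least 1.74-fold and FLO1 (SAKL0E15378g), a cell wall flocculation protein, at least 1.72-fold higher. In the other direction YDR374C (SAKL0G02794g) was at least 12.8-fold lower, SAKL0F00572g at least 8.25-fold, SAKL0F16742g at least 5.12-fold and SAKL0G19866g at least 4.21-fold lower. Fitted adjusted p for these 8 genes lay between 2.5e-05 and 7.3e-15.

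Genes of the glyoxylate cycle and gluconeogenesis, with acetyl-CoA and carnitine steps, mostly fell. Of 11 members tested, 8 fell (72.7%, against 19.9% of all genes tested), 2 rose (18.2%, against 26.5%) and 1 was not called. The median log2 difference was −2.50, against 0.13 for all genes. ICL1 (SAKL0F08756g), isocitrate lyase, stood at −4.83, −4.74, −5.08 and −4.82 where labelled YPGly, against 1.04, 0.62, 0.95 and −0.09 where labelled YPD. PCK1 (SAKL0E15048g), which opens gluconeogenesis, stood at −2.79, −2.57, −3.09 and −2.84 where labelled YPGly, against 2.54, 2.30, 2.45 and 2.02 where labelled YPD. Both lay lower on every YPGly array than on any YPD array, with log2 differences of −5.50 ± 0.20 and −5.15 ± 0.14 (45.2-fold and 35.5-fold, with adjusted p of 4.1e-13 and 1.5e-14). FBP1 (SAKL0H03740g), the fructose bisphosphatase, fell by 2.50 and SFC1 (SAKL0F14234g), a succinate-fumarate carrier, fell by 4.44. The carnitine genes CRC1 (SAKL0E10186g), YAT1 (SAKL0C07700g) and YAT2 (SAKL0F15400g) fell as well, at −4.82, −1.94 and −1.73. MLS1 (SAKL0E10846g), the malate synthase of the same cycle, did not move with them: it stood at 0.62, 0.68, 0.54 and 0.56 where labelled YPGly, against 0.65, 0.45, 0.72 and 0.17 where labelled YPD (difference 0.10 ± 0.13, adjusted p of 0.504). PYC1 (SAKL0A07128g), pyruvate carboxylase, rose by 1.51 and ACS2 (SAKL0H14542g), an acetyl-CoA synthetase, by 1.65.

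Most beta-oxidation enzymes fell, and the calls of peroxisome assembly genes were divided. In the peroxisome and beta-oxidation list, 13 of 19 members fell (68.4%, against 19.9% of all genes tested) and 1 rose (5.26%, against 26.5%). The list median was −1.38. The gene that rose was SPS19 (SAKL0D11484g), a dienoyl-CoA reductase, by 1.97 with 1 YPD value missing. POT1 (SAKL0E15246g), the thiolase, stood at −2.66, −2.11, −2.88 and −2.50 where labelled YPGly, against 3.70, 3.83, 3.55 and 3.17 where labelled YPD, and was low on every YPGly array. Its log2 difference was −6.10 ± 0.18 (68.5-fold, adjusted p of 3.2e-14). YLR284C (SAKL0A08008g), the enoyl-CoA isomerase, FOX2 (SAKL0A09196g), the multifunctional enzyme, POX1 (SAKL0F02068g), the acyl-CoA oxidase, and FAA2 (SAKL0F03960g), an acyl-CoA synthetase, fell at −6.03, −5.39, −5.02 and −3.42. PEX11 (SAKL0C13816g), which promotes peroxisome division, fell by 2.38. PEX21 (SAKL0H02574g) and the import receptors PEX5 (SAKL0H11946g) and PEX7 (SAKL0H15708g) fell too, at −2.04, −1.34 and −0.97. PEX2 (SAKL0C03762g), PEX10 (SAKL0G07370g), PEX13 (SAKL0F11748g), PEX19 (SAKL0H03036g) and PEX27 (SAKL0H08492g) were not called, with differences from −0.23 to 0.29.

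Genes of propionate and of maltose use fell beside each other on a chromosome, a pattern picked out after the values were seen. CIT3 (SAKL0B02926g), a methylcitrate synthase, and PDH1 (SAKL0B02948g), which act in succession on propionate carbon in *S. cerevisiae*, have neighbouring tags. CIT3 stood at −6.85, −6.57, −6.96 and −6.77 where labelled YPGly, against 4.15, 3.76, 3.89 and 3.42 where labelled YPD, and PDH1 at −3.91, −3.63, −4.26 and −4.22 where labelled YPGly, against 3.91, 3.70, 3.99 and 3.18 where labelled YPD. ICL2 (SAKL0B03212g), whose product acts later in that route, fell by 4.56 ± 0.16. MAL32 (SAKL0A05654g), a maltase, MAL11 and YGR287C (SAKL0A05698g), an isomaltase, are 3 tags in a row and fell together, at −5.07, −8.32 and −3.34. The MAL32 probe is one of those the array design names as cross-hybridising, and its second probe gave −6.43.

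Over all chromosomes, 302 genes (5.73% of those tested) were called at 4-fold or more. Among 5212 neighbouring pairs of genes tested, both members fell by at least 4-fold in 21, both rose by at least 4-fold in 5, and the members moved by as much in opposite directions in 8. Pairs that fell included BIO4 (SAKL0H11506g) and BIO3 (SAKL0H11528g), which act in succession in biotin synthesis, at −2.46 and −2.47. They also included ARN2 (SAKL0E00132g), a siderophore transporter, at −6.20 with its unnamed neighbours SAKL0E00154g at −4.94, well above background on 1 YPGly array, and SAKL0E00176g at −4.65, with a probe listed as cross-hybridising. The 20 outermost tags at each chromosome end were called in 51.2% of 299 genes, against 46.1% of the other genes, and 14.05% of them passed 4-fold, against 5.23%. Tags of chromosome C below number 11000 were called higher in 16.3% and lower in 25.9% of 455 genes, with a median of −0.06. All other genes had 27.4% higher and 19.4% lower, with a median of 0.14.

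Genes for the uptake and use of glycerol did not rise as a group where labelled YPGly. Of 7 members, 5 fell (71.4%, against 19.9% of all genes tested) and 2 rose (28.6%, against 26.5%), with a median of −1.20. GUT1 (SAKL0H25938g), glycerol kinase, stood at −1.18, −0.87, −1.34 and −1.22 where labelled YPGly, against 0.88, 0.79, 0.82 and 0.53 where labelled YPD. GUT2 (SAKL0E15114g), glycerol-3-phosphate dehydrogenase, stood at 1.64, 1.99, 1.61 and 1.74 where labelled YPGly, against 2.99, 3.00, 2.94 and 2.82 where labelled YPD. STL1 (SAKL0G18810g), the glycerol symporter, stood at 0.18, 0.28, 0.01 and 0.33 where labelled YPGly, against 1.29, 1.74, 1.29 and 1.41 where labelled YPD. The 3 genes were lower on all 4 YPGly arrays, with log2 differences of −1.91 ± 0.12, −1.20 ± 0.10 and −1.23 ± 0.12 (adjusted p of 8.9e-10, 2.8e-08 and 1.9e-07). DAK1 (SAKL0G17578g), dihydroxyacetone kinase, fell by 1.96 and YPR1 (SAKL0G02530g), an aldo-keto reductase, fell by 0.63, a call lost without YPD replicate 2 (−0.56). The members that rose were FPS1 (SAKL0H25916g), the glycerol export channel, and GUP1 (SAKL0A05126g), a membrane protein, each by 1.24. Carboxylic acid and lactate use had 3 of 7 genes lower (42.9%, against 19.9% of all genes tested) and 2 higher (28.6%, against 26.5%), with a median of −0.49. Among them CYB2 (SAKL0G16852g), a lactate dehydrogenase, rose by 1.77, while CYB2 (SAKL0F16610g) and DLD1 (SAKL0F11704g), another lactate dehydrogenase, were not called, at −0.49 and −0.19. The glycerol-making enzymes GPD1 (SAKL0C07502g) and RHR2 (SAKL0F08690g) were not called, at 0.56 and −0.23.

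**Figure D3:**
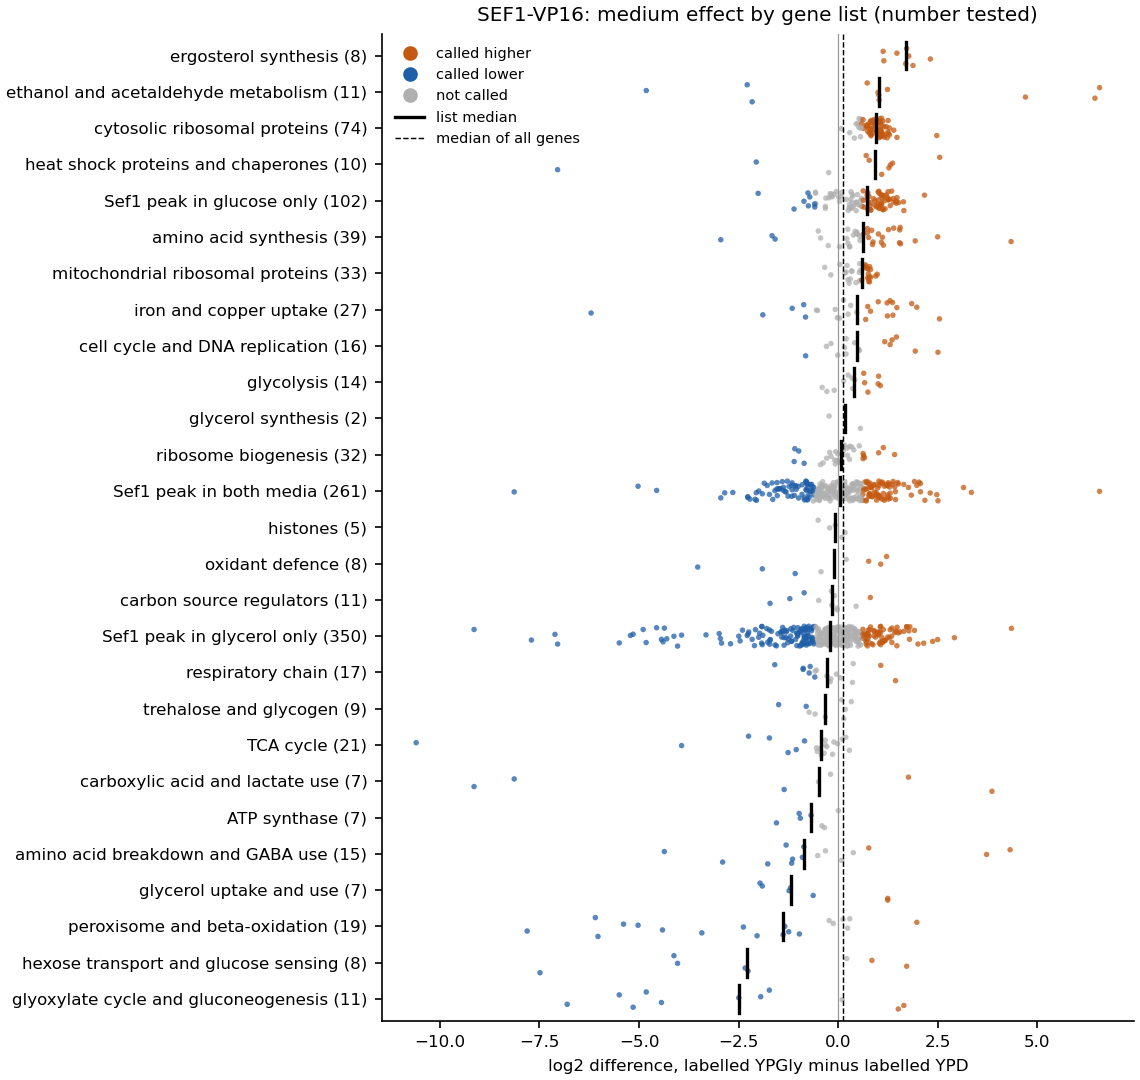
Log2 difference, labelled YPGly minus labelled YPD, of the tested members of each gene list (number in brackets), with lists in order of their median; orange points were called higher, blue lower and grey not called, thick ticks are list medians and the dashed line is the median of all genes (0.13). Ergosterol synthesis stands highest, with a median of 1.71, and the glyoxylate cycle and gluconeogenesis lowest, at −2.50.

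In ethanol and acetaldehyde metabolism 8 of 11 genes rose (72.7%, against 26.5% of all genes tested) and 3 fell (27.3%, against 19.9%). The median was 1.02. Beside ALD5, ALD6 and ADH4, the rises were ADH1 (SAKL0C10164g), the fermentative alcohol dehydrogenase of *S. cerevisiae*, by 1.24, ADH2 (SAKL0F06270g) by 1.03, ADH3 (SAKL0E02838g) by 1.00, and the pyruvate decarboxylases PDC1 (SAKL0G10164g) by 1.02 and PDC1 (SAKL0G14894g) by 0.73. The falls were ADH3 (SAKL0H00374g) at −4.82, ALD4 (SAKL0D14806g) at −2.28 and ADH3 (SAKL0B08184g) at −2.16. PDC1 (SAKL0G14894g) had 2 of 4 YPGly values and ADH2 3 of 4, the rest being missing. The probes used for ADH1 and ADH2 are listed as cross-hybridising, and the second probe of ADH3 (SAKL0E02838g) gave 4.61.

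Glycolysis genes rose a little or were not called. Of 14 genes, 6 rose (42.9%, against 26.5% of all genes tested) and none fell (against 19.9%), with a median of 0.39. HXK2 (SAKL0F00462g), hexokinase, rose by 1.06, PGI1 (SAKL0H09922g), the isomerase, by 1.00 and PFK1 (SAKL0H02552g), a phosphofructokinase subunit, by 1.02. PFK2 (SAKL0A02266g), TPI1 (SAKL0D02860g) and GPM1 (SAKL0G11352g) rose by 0.75, 0.66 and 0.64, and each came under 1.5-fold in at least 1 other normalisation. TPI1 and GPM1 also did so without YPGly replicate 4 (0.53 and 0.49) and without YPD replicate 4 (0.57 and 0.54). PGK1 (SAKL0D10384g), ENO2 (SAKL0H02024g) and PYK1 (SAKL0B10934g), of later steps, were not called, at −0.10, 0.36 and 0.42. TPI1, GPM1 and PGK1 each lacked 1 of 4 YPGly values. TDH3 (SAKL0H24926g) read −0.28 ± 0.19 with its brighter probe and −4.73 with its second probe, so its 2 probes do not measure the same difference.

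Hexose carriers and sensors split. Of 8 genes, 5 fell (62.5%, against 19.9% of all genes tested) and 2 rose (25%, against 26.5%), with a median of −2.30. The glucose sensor RGT2 (SAKL0D10450g) stood at −0.79, −0.27, −1.06 and −0.97 where labelled YPGly, against 3.50, 3.42, 3.34 and 3.15 where labelled YPD, and fell by 4.12 ± 0.19. The carriers HXT1 (SAKL0D14960g), HXT14 (SAKL0C07920g) and HXT3 (SAKL0G07656g) fell at −4.03, −2.34 and −2.26. HXT2 (SAKL0G19844g) rose by 1.72 and HXT6 (SAKL0B12540g) by 0.85. HXT4 (SAKL0G07678g), beside HXT3 on the chromosome, was at 0.21 ± 0.21, with 2 of its 4 YPGly values missing. Of 11 regulators of carbon source use, ADR1 (SAKL0H12958g), an activator of peroxisomal and ethanol-use genes, fell by 1.71, the repressors MIG1 (SAKL0H20988g) and NRG1 (SAKL0D03146g) fell at −1.21 and −0.85, and RGT1 (SAKL0A09856g), a repressor of hexose carriers, rose by 0.81. CAT8 (SAKL0D01342g), an activator of gluconeogenic genes, was not called, at −0.16. The list, with 3 lower (27.3%, against 19.9% of all genes tested) and 1 higher (9.09%, against 26.5%), had a median of −0.16.

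The TCA cycle fell in part. Of 21 genes, 7 fell (33.3%, against 19.9% of all genes tested) and none rose (against 26.5%), with a median of −0.42. MDH2 (SAKL0C12760g), a cytosolic malate dehydrogenase in *S. cerevisiae*, KGD2 (SAKL0H15422g), of the ketoglutarate dehydrogenase complex, LSC2 (SAKL0H02464g), of succinyl-CoA ligase, and FUM1 (SAKL0E00946g), fumarase, fell at −1.73, −1.26, −1.05 and −0.85. CIT3, IDP3 (SAKL0D08426g), at −3.93, and MDH3 (SAKL0E04928g), at −2.25, complete the 7, and the last 2 encode peroxisomal enzymes in *S. cerevisiae*. Among mitochondrial members, ACO1 (SAKL0H24046g), IDH1 (SAKL0E07876g), IDH2 (SAKL0G03520g), MDH1 (SAKL0G19140g) and SDH1 (SAKL0G11440g) were not called, with differences from −0.32 to 0.10. SDH2 (SAKL0H25850g), KGD1 (SAKL0E08866g), SDH3 (SAKL0E04136g) and LPD1 (SAKL0B01958g) were not called either, at −0.54, −0.52, −0.45 and −0.42. In 12 of the 21 genes all YPGly arrays lay below all YPD arrays, and in none above them. Over the 5266 genes tested this held for 1431 below and 2106 above.

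Respiratory genes moved both ways. In the respiratory chain, 6 of 17 genes fell (35.3%, against 19.9% of all genes tested) and 2 rose (11.8%, against 26.5%), with a median of −0.28. QCR6 (SAKL0H25982g), RIP1 (SAKL0D11242g) and COR1 (SAKL0F15026g), of the cytochrome bc1 complex, fell at −1.59, −0.88 and −0.70. Of the NADH dehydrogenases, NDI1 (SAKL0D01056g) fell by 0.73, NDI1 (SAKL0C09438g) rose by 1.07 and NDE2 (SAKL0D09658g) rose by 1.44. In the ATP synthase list 4 of 7 genes fell (57.1%, against 19.9%) and none rose (against 26.5%), with a median of −0.68. The 4 were STF1 (SAKL0F09988g), ATP20 (SAKL0H20240g), TIM11 (SAKL0G08602g) and ATP3 (SAKL0D04158g), at −1.55, −0.98, −0.95 and −0.68. ATP1 (SAKL0F13420g), a subunit of the catalytic head, was at 0.01.

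Genes with the same *S. cerevisiae* name could move in opposite directions. Of 87 names given to more than 1 gene tested, 19 had members called in opposite directions, 60 had calls in 1 direction and 8 had none. Some of the 60, such as SNQ2, had only 1 called member. Of all genes tested 26.5% were called higher and 19.9% lower, and whether same-named genes part more often than others was not tested. The 3 JEN1 genes gave the widest span. JEN1 (SAKL0D04510g) stood at −3.13, −2.45, −2.53 and −2.59 where labelled YPGly, against −7.33, −6.45, −6.10 and −6.27 where labelled YPD, where only 1 array was well above background, and rose by 3.86 ± 0.25. JEN1 (SAKL0G14938g) stood at 0.17, 0.63, 0.15 and 0.16 where labelled YPGly, against 1.97, 1.47, 1.74 and 1.34 where labelled YPD, and fell by 1.36 ± 0.15. Together with the fall of SAKL0F02178g given above, the group runs from −9.14 to 3.86. SPS19 genes, dienoyl-CoA reductases, ran from −4.41 for SAKL0E13464g and −1.38 for SAKL0D10802g to 1.97 for SAKL0D11484g, with 1 YPD value missing. The acetyl-CoA synthetases ACS1 and ACS2 also parted: ACS1 stood at −1.99, −1.77, −2.27 and −2.27 where labelled YPGly, against 5.03, 4.90, 4.65 and 4.34 where labelled YPD, and ACS2 at 2.57, 2.71, 2.56 and 2.66 where labelled YPGly, against 0.84, 1.21, 0.87 and 0.98 where labelled YPD.

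**Figure D4:**
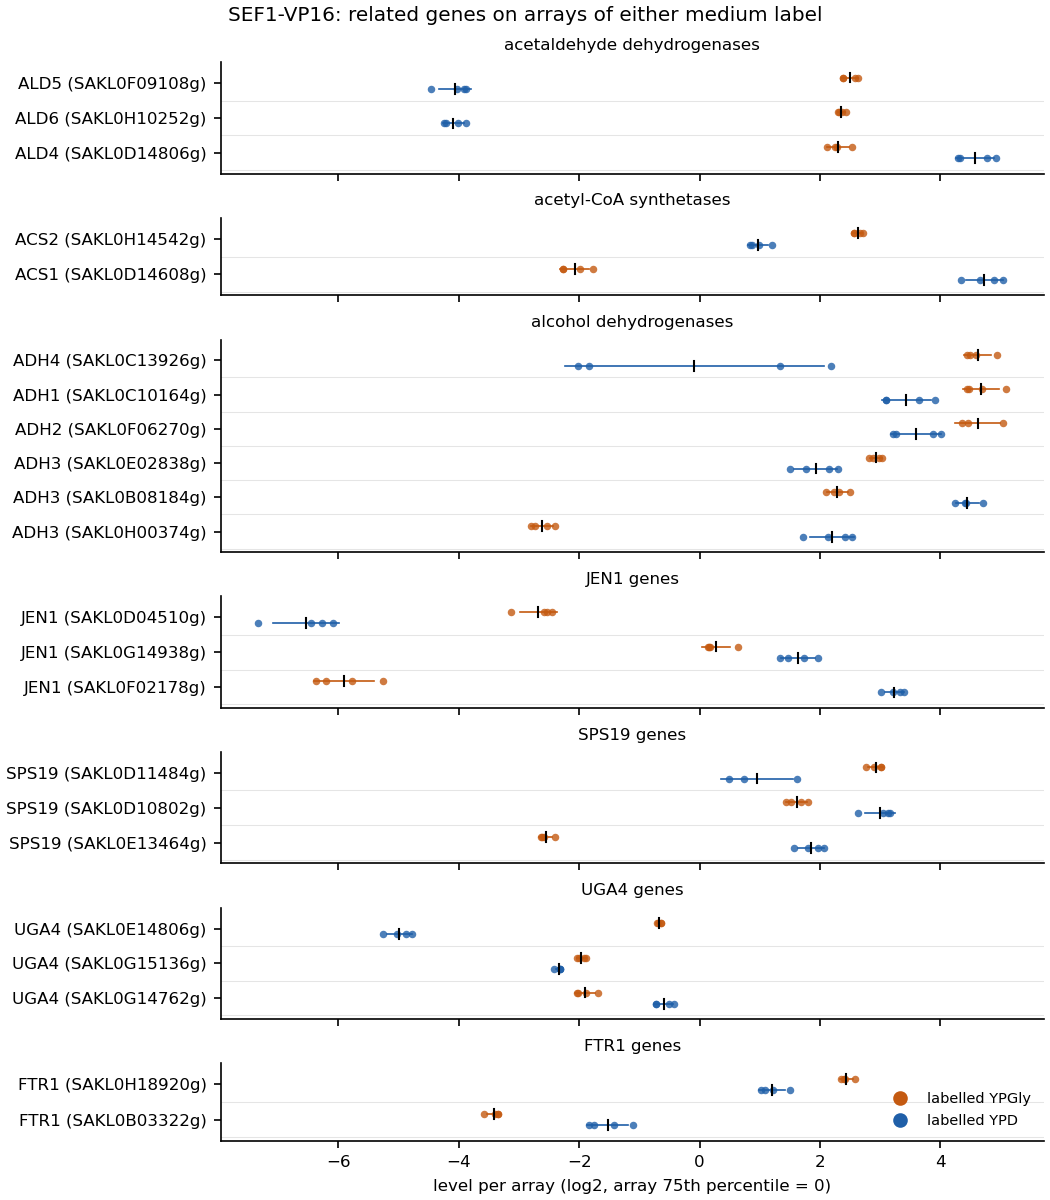
Level per array (log2, array 75th percentile at 0) of genes that share a role or an ortholog name; orange points are the 4 arrays labelled YPGly, blue points the 4 labelled YPD, black ticks the means and lines the mean ± SD. Each panel holds genes on both sides, as for ACS2, higher where labelled YPGly, and ACS1, lower; 1 YPD value of SPS19 (SAKL0D11484g) is missing.

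Iron and copper uptake genes moved both ways. Of 27 members tested, 13 rose (48.1%, against 26.5% of all genes tested) and 5 fell (18.5%, against 19.9%), with a median of 0.47. The high-affinity iron pair rose: FTR1 (SAKL0H18920g), the permease, stood at 2.39, 2.41, 2.35 and 2.59 where labelled YPGly, against 1.09, 1.22, 1.01 and 1.51 where labelled YPD, and FET3 (SAKL0B12056g), its oxidase, at 2.06, 2.18, 2.04 and 2.14 where labelled YPGly, against 0.47, 0.82, 0.56 and 1.11 where labelled YPD. The rises were 1.23 ± 0.12 and 1.36 ± 0.11, with no overlap. The second copies differed from them, since FTR1 (SAKL0B03322g) fell by 1.89 and FET3 (SAKL0H26202g) was at 0.03 ± 0.15. The low-affinity transporter FET4 rose in both copies, by 1.97 for FET4 (SAKL0B00308g) and 1.47 for FET4 (SAKL0H00132g), both with probes listed as cross-hybridising, as did the copper transporter CTR1 (SAKL0F03784g) by 1.24 and the vacuolar metal carrier SMF3 (SAKL0E04576g) by 1.30.

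Siderophore carriers fell, except 1 gene that was not called, and no ferric reductase fell. ARN2 (SAKL0E00132g) stood at −6.05, −6.32, −6.12 and −6.23 where labelled YPGly, against 0.16, −0.03, −0.06 and 0.04 where labelled YPD, a 73.7-fold fall. ARN1 (SAKL0F00792g), ARN1 (SAKL0G03300g) and SIT1 (SAKL0G06600g) fell at −1.15, −0.82 and −0.87, and SIT1 (SAKL0C12122g) was at 0.31. The reductase FRE1 (SAKL0F10582g) rose by 1.85 and FRE6 (SAKL0F16302g) by 1.00, and FRE1 (SAKL0C02992g) and FRE8 (SAKL0G15026g) were not called, at −0.55 and 0.47. In a run of 4 reductase genes with consecutive tags, FRE3 (SAKL0F14718g) rose by 0.81, FRE5 (SAKL0F14740g) by 2.54 and FRE3 (SAKL0F14762g) by 0.74, and FRE3 (SAKL0F14784g) was at 0.25. Second probes gave 2.65 for SAKL0F14718g and 5.16 for SAKL0F14740g, so the sizes depend on the probe. AFT1 (SAKL0A04532g), the iron regulator, stood at −1.28, −1.54, −1.15 and −1.34 where labelled YPGly, against −1.93, −2.20, −1.89 and −2.05 where labelled YPD (difference 0.69 ± 0.12, adjusted p of 8.0e-05).

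Amino acid synthesis rose and amino acid breakdown fell in most called genes. Of 39 synthesis genes, 20 rose (51.3%, against 26.5% of all genes tested) and 3 fell (7.69%, against 19.9%), with a median of 0.62. After GDH3, the largest rises were ARG8 (SAKL0E05016g), of arginine synthesis, by 2.50, with 2 of 4 YPD arrays well above background, MET6 (SAKL0F12100g), methionine synthase, by 1.93, SER2 (SAKL0G14740g), of serine synthesis, by 1.57, MET10 (SAKL0F07260g), of sulfite reductase, by 1.56, and HIS7 (SAKL0A05742g), of histidine synthesis, by 1.54. LEU9 (SAKL0F05170g), an isopropylmalate synthase, MET2 (SAKL0C02266g) and LYS21 (SAKL0H09746g), a homocitrate synthase, fell at −2.95, −1.66 and −1.58. In amino acid breakdown and GABA use 8 of 15 genes fell (53.3%, against 19.9%) and 3 rose (20%, against 26.5%). The median was −0.86. CHA1 (SAKL0C00418g), the serine and threonine deaminase, stood at −3.10, −2.92, −3.15 and −2.81 where labelled YPGly, against 1.53, 1.48, 1.46 and 1.01 where labelled YPD, a 20.6-fold fall. GDH2 (SAKL0E13024g), the NAD-dependent glutamate dehydrogenase that runs opposite to GDH3 in *S. cerevisiae*, fell by 2.90, and the proline permease PUT4 (SAKL0B10956g) fell by 1.77. CAR1 (SAKL0H08536g), arginase, rose by 0.77.

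All 8 ergosterol genes tested rose, against 26.5% of all genes tested, with a median of 1.71. ERG4 (SAKL0H22000g), of the last step, rose by 2.31, MVD1 (SAKL0A00748g), of the mevalonate steps, by 1.88, ERG11 (SAKL0G06336g), the lanosterol demethylase, by 1.77, ERG28 (SAKL0F07810g) by 1.72, ERG1 (SAKL0G13266g), squalene epoxidase, by 1.70 and ERG20 (SAKL0C05192g) by 1.47. The smallest rise was that of HMG1 (SAKL0G17886g), the HMG-CoA reductase, at 1.13. Names known here favour genes that Sef1 bound or that changed in the study's other comparisons, so no list is a full pathway.

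Ribosomal protein genes rose together. Of 74 cytosolic ribosomal protein genes, 63 rose (85.1%, against 26.5% of all genes tested) and none fell (against 19.9%). In 72 of the 74 all YPGly arrays lay above all YPD arrays, against 2106 of the 5266 genes tested. The differences of the 74 genes ran from 0.08 (RPS30B, SAKL0A07898g) to 2.48 (RPS22A, SAKL0C04488g), with a median of 0.96, or 0.81 with quantile normalisation. The median level over the 74 genes lay between 3.58 and 3.81 on the YPGly arrays and between 2.60 and 2.80 on the YPD arrays. RPS22A stood apart from the rest, at 2.32, 1.88, 2.67 and 2.10 where labelled YPGly, against −0.51, −0.11, −0.22 and −0.10 where labelled YPD. Mitochondrial ribosomal protein genes had 17 of 33 higher (51.5%, against 26.5%) and none lower (against 19.9%), with a median of 0.59. Ribosome biogenesis factors, needed to assemble ribosomes, had 7 of 32 higher (21.9%, against 26.5% of all genes tested) and 4 lower (12.5%, against 19.9%), with a median of 0.07. NOP56 (SAKL0F11462g) and NOP1 (SAKL0C07942g), of the box C/D particle that modifies ribosomal RNA, rose by 1.42 and 1.13.

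Cell cycle and DNA replication genes had 6 of 16 higher (37.5%, against 26.5% of all genes tested) and 1 lower (6.25%, against 19.9%), with a median of 0.46. CLB6 (SAKL0F06688g), an S-phase cyclin, rose by 2.51, POL30 (SAKL0B07128g), the replication clamp, with 1 YPD value missing, by 1.94, MCM6 (SAKL0F02244g), of the replicative helicase, by 1.46, RNR3 (SAKL0F08998g), of ribonucleotide reductase, by 1.35, CLB1 (SAKL0F06666g), a mitotic cyclin, by 1.30 and CLN3 (SAKL0D14124g), a G1 cyclin, by 1.17. CLN2 (SAKL0A02508g), another G1 cyclin, fell by 0.82. None of the 5 histone genes was called, with differences from −0.50 to 0.17. ACT1 (SAKL0B00968g), actin, stood at 3.89, 3.95, 3.77 and 4.14 where labelled YPGly, against 3.30, 3.58, 3.38 and 3.41 where labelled YPD. Its difference of 0.52 ± 0.12 passed the adjusted p (8.6e-04) but not 1.5-fold, so a gene often used as a constant was not level here.

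Chaperone genes moved both ways. Of 10 genes, 7 rose (70%, against 26.5% of all genes tested) and 2 fell (20%, against 19.9%), with a median of 0.94. SSA4 (SAKL0F12606g), an Hsp70 protein, was not called, at −0.24. HSP26 (SAKL0D02794g), a small heat shock protein, rose by 2.55, the disaggregase HSP104 (SAKL0H25388g) by 1.36, the mitochondrial chaperones HSP60 (SAKL0E02024g) and HSP78 (SAKL0G07106g) by 1.31 and 1.27, and HSP82 (SAKL0A03234g), with 1 YPGly value missing, by 1.09. HSP30 stood at −4.20, −3.68, −4.34 and −4.20 where labelled YPGly, against 3.32, 2.91, 3.15 and 2.39 where labelled YPD, and HSP12 (SAKL0B02090g), a membrane-stabilising protein, fell by 2.06. Of 8 oxidant defence genes 3 rose (37.5%, against 26.5% of all genes tested) and 3 fell (37.5%, against 19.9%). The catalases CTA1 (SAKL0H11198g), peroxisomal, and CTT1 (SAKL0F05742g), cytosolic, fell at −3.53 and −1.90, and HYR1 (SAKL0A05940g), a peroxidase, at −1.08. TRR2 (SAKL0G01958g), thioredoxin reductase, TSA2 (SAKL0G05940g), peroxiredoxin, and CCP1 (SAKL0C05786g), cytochrome c peroxidase, rose by 1.22, 1.07 and 0.77. In trehalose and glycogen metabolism 2 of 9 genes fell, ATH1 (SAKL0F13442g), acid trehalase, at −1.49 and GLG2 (SAKL0C06358g), glycogenin, at −0.80, and none rose, with a median of −0.32. That is 22.2% lower, against 19.9% of all genes tested.

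Genes near Sef1 binding peaks were then grouped by the medium in which the study called the peak. SEF1 (SAKL0F12342g) itself stood at −2.04, −2.20, −2.16 and −2.08 where labelled YPGly, against −2.31, −2.41, −2.17 and −2.09 where labelled YPD. Its groups overlapped and its difference was 0.12 ± 0.10 (adjusted p of 0.281), and its probe does not test for the VP16 domain. Of 350 genes tested with a peak in glycerol only, 71 (20.3%) rose and 115 (32.9%) fell where labelled YPGly, with a median of −0.20. Of these, 145 lie in the left part of chromosome C (tags below 11000), where 25 rose and 43 fell with a median of −0.09, and the other 205 had 46 higher, 72 lower and a median of −0.23. Of 102 genes with a peak in glucose only, 56 (54.9%) rose and 8 (7.84%) fell, with a median of 0.73. The 261 genes with a peak in both media had 78 higher and 70 lower and a median of 0.06, which was −0.01 with median centring and 0.01 without YPGly replicate 3. All genes tested had 26.5% higher and 19.9% lower. In WT the medians were −0.16 for peaks in glycerol only, 0.055 for both media and 0.62 for glucose only. In the same order, the test of the strain difference given below called 9, 7 and 1 of these genes, against 60 of 5266 (1.14%). Among the genes named above, JEN1 (SAKL0F02178g), ICL1, PCK1, FBP1, PDH1, ICL2, MEP2 and CHA1 (SAKL0C00418g) have peaks in glycerol only, ALD5 and POX1 in both media, and ACS2 and ADH3 (SAKL0E02838g) in glucose only.

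The medium effect in SEF1-VP16 was set against that in WT with a test of the difference, since both strains were fitted together. The difference was called for 60 genes (1.14%), 34 higher and 26 lower in SEF1-VP16, and for 207 at an unadjusted p of 0.05 with the same fold. The split was 48 higher and 23 lower with median centring. The count rested on single arrays: it was 26 without SEF1-VP16 YPGly replicate 4 or without WT YPGly replicate 2, and 98 without WT YPD replicate 3. Of the 60 genes, 39 were also called for the medium in SEF1-VP16, against 46.4% of all genes tested. No gene tested, among the 60 or outside them, was called in opposite directions in the strains. Across genes the medium effects of the 2 strains correlated at 0.966. Of the 2443 genes called in SEF1-VP16, 2084 (85.3%) were also called in WT in the same direction. Strains lay in different rows of each slide, so strain and row cannot be told apart.

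BIO3 (SAKL0H11528g) had the largest strain difference. It stood at −3.13, −2.89, −3.00 and −3.07 where labelled YPGly, against −0.31, −0.50, −0.32 and −1.08 where labelled YPD, so it fell by 2.47 in SEF1-VP16, against a difference of −0.54 in WT. The difference between strains was −1.93 ± 0.19 (adjusted p of 6.5e-05). Genes named for isomaltases also fell further in SEF1-VP16. IMA5 (SAKL0A00154g) stood at −0.99, −0.65, −1.36 and −1.37 where labelled YPGly, against 3.11, 3.49, 2.95 and 3.18 where labelled YPD, a difference of −4.27 in SEF1-VP16 and −2.93 in WT. The strain difference was −1.34 ± 0.24 for IMA5 (adjusted p of 9.9e-03), −1.22 for YJL216C (SAKL0C00176g), −1.30 for YOL157C (SAKL0C02112g) and −1.03 for YGR287C, the last named after its value was seen. The probes for YJL216C and YOL157C are listed as cross-hybridising, and with the second probe neither was called (−1.102 and −0.74). The unnamed SAKL0E04807g, at −1.29, was not called with the normexp background correction (−0.90).

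In the other direction DAP2 (SAKL0G11154g), a vacuolar peptidase, fell less in SEF1-VP16, with a strain difference of 1.49 ± 0.33, as did CHA1 (SAKL0C00418g) at 1.14 and ESBP6 (SAKL0C09614g), a carrier-like protein, at 1.07. Ferric reductases differed as well: FRE5 (SAKL0F14740g) stood at −0.77, −0.80, −0.79 and −0.40 where labelled YPGly, against −3.17, −3.28, −3.18 and −3.31 where labelled YPD, a rise of 2.54 in SEF1-VP16 and of 1.34 in WT. The strain difference was 1.20 ± 0.19 for FRE5 (adjusted p of 5.1e-03) and 1.17 ± 0.26 for FRE3 (SAKL0F14718g, adjusted p of 0.036). FTR1 (SAKL0H18920g) also rose more, with a strain difference of 0.98 (adjusted p of 9.9e-03). CTR3 (SAKL0G16038g), a copper transporter picked after its values were seen, went the other way: it was at 0.14 ± 0.08 in SEF1-VP16 and rose by 1.87 in WT, a strain difference of −1.73 ± 0.12 (adjusted p of 6.1e-07). In all, 6 of 27 iron and copper genes had a called strain difference, against 60 of 5266 genes tested (1.14%). For 19 of the 27 the name came only from the study's expression comparisons, which include SEF1-VP16 against WT. The list can therefore favour genes that differ between the strains, and the count is no test of iron genes. Leaving out 1 array at a time, the calls of BIO3, IMA5, YJL216C, SAKL0E04807g, ESBP6 and FRE5 were kept in each case. Those of YOL157C, FRE3 (SAKL0F14718g) and DAP2 were lost in most cases, and that of CHA1 in several. YOL157C also lost its call with array weights, median centring and normexp, and DAP2 with normexp. With the second probe FRE5 and FRE3 were not called (1.24 and 1.0998, adjusted p of 0.22 and 0.096).

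**Figure D5:**
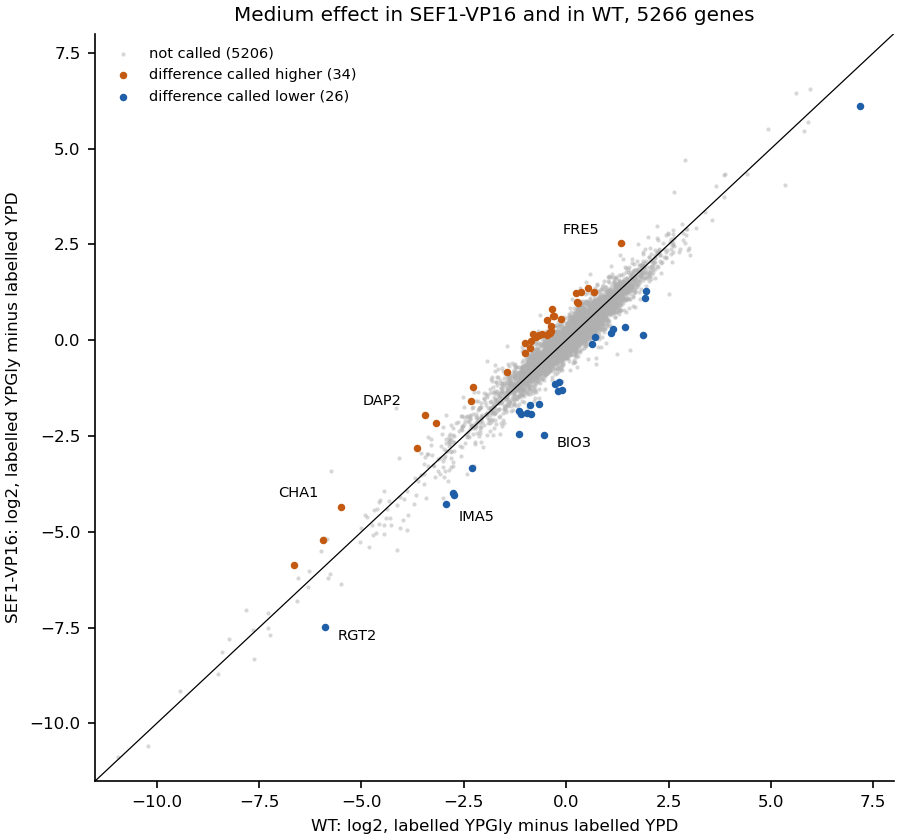
Medium effect (log2, labelled YPGly minus labelled YPD) of 5266 genes in SEF1-VP16 (vertical axis) against WT (horizontal axis); the line marks equal effects. Coloured points are the 60 genes whose strain difference was called, 34 higher in orange and 26 lower in blue, with BIO3 and IMA5 below the line and DAP2, CHA1 and FRE5 above it.

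Both probes of a gene mostly gave the same answer. Of 2433 called genes with a second probe, 2422 had the same sign on it, 2214 were also called in that direction and 2 were called in the opposite one. Across genes the differences of the probes correlated at 0.97, and their median absolute difference was 0.09. Genes named above whose probes differed in size included TDH3 (SAKL0H24926g), ADH3 (SAKL0E02838g), FRE5 and FRE3 (SAKL0F14718g). The number of arrays, 4 in each group, limits the precision, with a median SE of 0.12 for a log2 difference.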

How the data were processed

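Total RNA of each culture was labelled with 1 dye and hybridised to an Agilent array with 2 probes for most genes. The authors extracted spots with Feature Extraction 10.5.1.1, and the deposited value table holds log2 values that matched the log2 of the processed signal to within 1.74e-06 after 1 constant per array, so its values are relative to each array's 75th percentile. The deposited scanner intensity (processed signal, mean signal and background) served that comparison and the normexp alternative. Flag columns of the scanner tables, deposited by the authors as other values, gave spots well above background, saturated spots and outliers. The 332 outlier spots were set to missing. The brighter probe of each of 5316 genes was used, and the 5266 genes that every array of 1 or more groups read as well above background were tested with limma 3.58.1 (R 4.3.3), fitting the 4 groups of 16 arrays together, with Benjamini-Hochberg adjustment over all genes tested. Standard errors are from this fit.

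The members and gene lists were chosen with earlier results of these data known. Named genes are the 12 largest called rises and falls among genes well above background on all 8 arrays whose groups do not overlap, the 4 largest bounds each way, up to 6 called genes each way per list and those needed to say which did not move, 5 strain differences each way, and SEF1, AFT1 and ACT1. Names came from the study's tables, which favour genes bound or changed in its comparisons. On simulated data the fit recovered 91 of 100 genes changed by 1 on the log2 scale and 98 of 100 changed by 2, with 5 false calls. The simulation drew independent noise, held no slide effect and changed few genes, whereas 46.4% were called here. Its rates therefore do not carry over to these arrays. Alternatives were other normalisations and background correction, the second probe, other thresholds, array weights, the methods' t-test, replicates left out and a replicate block. Replicate numbers also mark the array column, and same-numbered arrays of the media did not all deviate together (r from −0.01 to 0.39), so the numbers were not taken as pairs.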

Additional observations from a re-analysis of the deposited data

Results flagged for a closer look

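In 32 of 505 groups of 4 arrays examined over the named genes, 1 array stood far from the other 3 relative to the group's range. Chance gives about 1 in 20 groups. By array the count was 2, 4, 6 and 6 for YPGly replicates 1 to 4 and 3, 1, 2 and 8 for YPD replicates 1 to 4. The outlying log2 levels on arrays labelled YPGly among carbon and lipid genes were MDH2 1.74, HXT3 1.24, JEN1 (SAKL0G14938g) 0.63, FPS1 0.37, PEX21 0.26 and PXA1 −3.97. Among iron genes they were FET4 (SAKL0B00308g) 1.12, FRE5 −0.40 and CTH1 −1.15. Among cell cycle, ribosome and chaperone genes they were NOP1 2.53, HSP78 2.21, CLB1 −0.11, MRPL40 −0.63, CLN3 −0.91 and CLN2 (SAKL0A02508g) −1.06. The rest were STF1 −0.39, YDR131C (SAKL0H16148g) −2.31 and SAKL0F16742g −8.24, the last not above background. On arrays labelled YPD the outlying levels were GDH2 4.01, MDH1 (SAKL0G19140g) 3.77, HXK2 3.73, HSP82 3.17, YJR096W 2.20, YAT1 (SAKL0C07700g) 1.44, CHA1 (SAKL0C00418g) 1.01, CTR1 (SAKL0F03784g) −0.55, GUP1 −1.13, BIO4 −1.52, PEX13 −1.67, TIM11 −1.69, NOP6 −2.86 and ITR1 −5.05.

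The medium effect differed between the strains for 19 of the named genes by the test of the difference. It was higher in SEF1-VP16, on the log2 scale, for DAP2 by 1.49, FRE5 by 1.20, FRE3 (SAKL0F14718g) by 1.17, CHA1 (SAKL0C00418g) by 1.14, ESBP6 by 1.07, FTR1 (SAKL0H18920g) by 0.98, CTH1 by 0.83 and ENA2 (SAKL0H13222g), a sodium pump, by 0.72. The negative values, SEF1-VP16 minus WT, were BIO3 −1.93, CTR3 −1.73, RGT2 (SAKL0B00264g) −1.60, IMA5 −1.34, YOL157C −1.30, SAKL0E04807g −1.29, YJL216C −1.22, UGA4 (SAKL0G14762g) −1.19, YPL272C −1.08, YGR287C −1.03 and MDH1 −0.73. RGT2 and YPL272C were not well above background on some or all arrays of 1 medium, so the sizes of their differences are not measured on both sides.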

How the results depend on the processing

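The medium effect called 3683 genes with the adjusted p alone (2140 higher) and 1215 at 2-fold (628 higher and 587 lower), against 2443 with both criteria. The split between higher and lower was 1241 and 1150 with median centring, 1309 and 1090 with quantile normalisation, and 1421 and 886 with normexp, against 1394 and 1049. Leaving out 1 array at a time gave 2379 to 2488 calls, the replicate block 2447 and the second probe 2481, of which 2196 were shared. The methods' t-test with 1.5-fold called 2437 genes unadjusted and 2425 after Benjamini-Hochberg. No scaling moved the median of all genes by over 0.1. The strain difference, 60 calls, was less stable. Without 1 array it called 26 to 98 genes, 10 to 63 of them higher and 15 to 42 lower, with 26 without SEF1-VP16 YPGly replicate 4 or WT YPGly replicate 2, 96 without SEF1-VP16 YPD replicate 4 and 98 without WT YPD replicate 3. It called 20 at 2-fold (6 higher, 14 lower), 41 with the second probe (16 higher, 24 of the 41 shared), 70 with the replicate block, 71 with median centring (48 higher, 23 lower), 67 with normexp (43 higher, 24 lower), 81 with quantile normalisation (49 higher, 32 lower) and 86 with array weights (48 higher, 38 lower). The median of the list of genes with Sef1 peaks in both media turned to −0.011 with median centring and −0.00089 with quantile normalisation, and that of glycerol synthesis to −0.020 with quantile normalisation. Of 212 results for named genes, 191 kept direction and call in every alternative, 82 of 5500 values lost the call, 1 gained it (ACT1, 0.61 with normexp) and none reversed. The causes were not tested. The arrays labelled YPGly and YPD lie on different slides, and 1 isolate and 4 cultures per medium limit how far any value carries.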

Other observations

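Some genes varied widely between the 4 cultures labelled YPD. For 18 genes well above background on all 4, the SD of the log2 level was over 0.75 on the arrays labelled YPD, and in 15 of these replicates 2 and 4 both lay above replicates 1 and 3. On the arrays labelled YPGly 7 genes had an SD over 0.75, and 1 of them had that order. Besides ADH4 and YRO2, the genes included OPT1 (SAKL0G15224g), an oligopeptide transporter, at −3.40, −2.34, −3.28 and −0.79 on YPD replicates 1 to 4, and HXT2 (SAKL0G19844g), a hexose carrier, at 0.58, 2.05, 0.78 and 2.87. These genes were picked after their values were seen. The replicate number is also the array column, so culture and column cannot be told apart.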
